A study of Mus musculus with 3 samples.

Results

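Immediate early genes are the first genes that a stimulated cell transcribes, because the factors that switch them on are already present and need only to be phosphorylated. Growth factors, antigen receptor signals, microbial products and stress act through MAP kinases on serum response factor (SRF), its ternary complex partners and CREB, which are bound at the promoters of these genes. The transcripts are short-lived and many of their products are transcription factors or feedback inhibitors. Macrophages and T cells both use them, and the same genes are known to respond when a tissue is dissociated into single cells. The 10 genes described here were Fos, Fosb, Jun and Junb (subunits of the AP-1 transcription factor), Egr1 and Egr2 (zinc finger factors), Nr4a1 (an orphan nuclear receptor), Atf3 (a stress-induced bZIP factor), Ier2 (a small nuclear protein) and Dusp1 (the phosphatase that inactivates p38, JNK and ERK). They were chosen by name. All 10 were found among the 36835 genes with a level, and all 10 passed the minimum of 1 FPKM in at least 1 library, as did 12703 genes in total.

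The RNAseq data held 1 library from each of 3 sorted populations of BALB/C mice carrying Renca renal carcinoma tumors in the kidney. The labels call the injected line Renca, while the study describes the mice of this experiment as given Renca Ch+ L+, the Cherry and luciferase form of it. The labels name type-1 macrophages (M1, F4/80 int and CD11b high in the study's gates), type-2 macrophages (M2, F4/80 high and CD11b int) and CD4 T cells (TCRβ+ CD4+). Cells were pooled from 30 tumors, and from 4 spleens for the CD4 T cells, although one label also gives the tumor as the source of the CD4 T cells. Harvest is given as day 16 in one label and day 14 in another. All mice bore tumors and no library of untreated mice was analysed here. Every organ was dissociated, stained and sorted before RNA was extracted. Levels are in FPKM, a unit corrected both for how long a transcript is and for how deeply a library was sequenced, so that levels of different genes can be set side by side. Depth is not stored in FPKM. From the level that 1 fragment gives, it was estimated as 60800000 fragments for M1, 58700000 for M2 and 72300000 for CD4. With 1 library per population no test was possible, and the intervals below are exact 95% intervals for counting error. They cover neither the spread between mice nor the way Cufflinks divides fragments among transcripts.

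The names of 2 libraries go against their cell type genes, and every direction below rests on the labels. The 15 T-cell genes examined all had their highest level in the library labelled M2. Their levels summed to 2273 FPKM there, against 2.87 in M1 and 2.81 in CD4. M1, M2 and CD4 stand below for the libraries so labelled. Cd3e, a chain of the T-cell receptor complex, was at 126 FPKM in M2, 0.131 in M1 and 0.141 in CD4. Trbc1, a constant region of the receptor's β chain, was at 434 FPKM in M2, 0.4003 in M1 and 0.329 in CD4. Of 13 macrophage genes 11 were highest in the library labelled CD4 and 2 in M1, with sums of 13062 FPKM in CD4, 8503 in M1 and 656 in M2. Itgam, which encodes CD11b, was at 299 FPKM in M1, 201 in CD4 and 14.7 in M2, and Emr1, which encodes F4/80, at 45.3, 215 and 9.16 in M1, CD4 and M2. Csf1r, the receptor of the macrophage growth factor, was at 519 FPKM in CD4, 279 in M1 and 15.3 in M2. The library labelled M2 also had the highest sums for B-cell genes (57.7 FPKM against 0.457 in M1 and 0.518 in CD4), neutrophil genes (246 against 72.4 and 36.5), erythroid genes (629 against 105 and 103), and kidney epithelial and tumor genes (206 against 122 and 99.5). Highest in M2 were 5 of 7 B-cell, 9 of 11 neutrophil and 8 of 8 erythroid genes, but only 7 of 13 kidney epithelial and tumor genes. Of the latter 4 were highest in CD4 and 2 in M1. Cdh16 made up 87.8 FPKM of their sum in M2, while Cdh1 was at 48.2 FPKM in M1 and 6.69 in M2. Of 6 endothelial genes only Pecam1, which leukocytes also express, was highest in M2, at 35.03 FPKM of a sum of 36.7, while the sums in M1 and CD4 were 6.38 and 6.37 and Vwf was listed at 0 in M2. Cdh16, Cdh1, Pecam1 and Vwf were picked out after inspection of the lists. Fibroblast genes were highest in CD4, at 31.9 FPKM against 6.91 in M1 and 10.01 in M2. The part of these other cells in the levels below was not tested. In such bulk samples, fewer cells of a type and less RNA per cell cannot be told apart.

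Immediate early genes were abundant in all 3 libraries. Their median level was 49.0 FPKM in the library labelled M1, 38.5 in M2 and 44.1 in CD4, above 93.5%, 92.5% and 92.8% of the genes listed above 0 in those libraries. The median over all genes that passed the minimum was 7.73, 8.25 and 7.75 FPKM. Of the 10 members, 7 were at 10 FPKM or more in each library, as were 32.4% of all genes that passed the minimum. The other 3 were Fosb, Egr2 and Nr4a1.

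**Figure D1:**
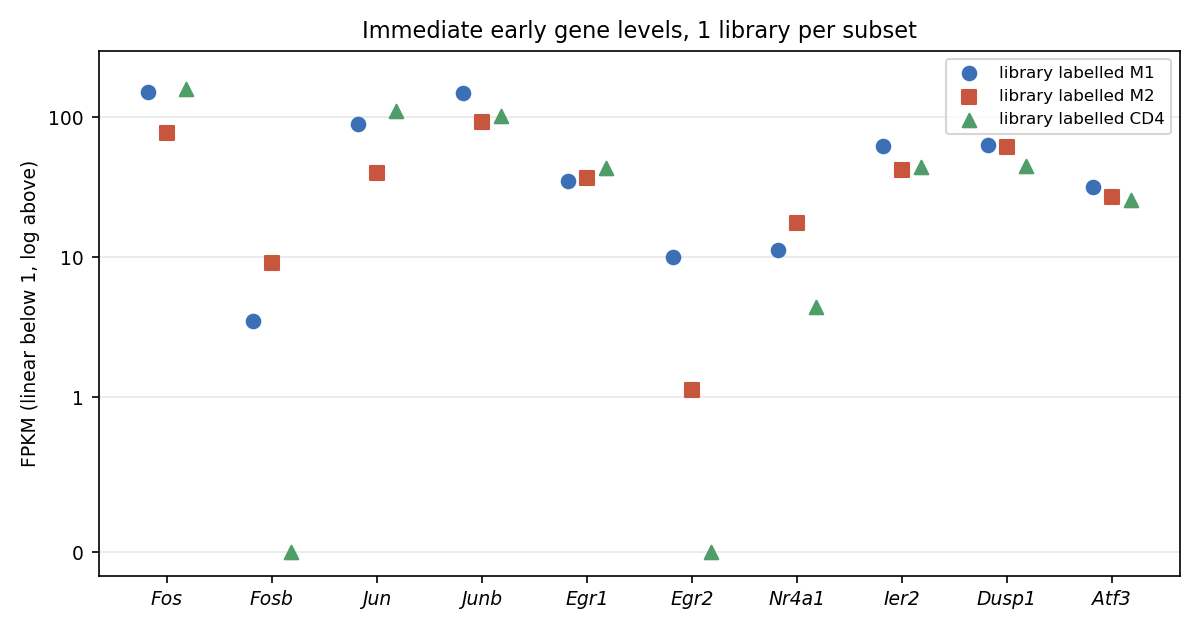
Level of each immediate early gene in FPKM (vertical axis, linear from 0 to 1 and logarithmic above) in the 3 libraries, with 1 point per library and no error bar because each population had 1 library. Fos, Jun and Junb lie highest, up to 159 FPKM, and the points of Fosb and Egr2 in the library labelled CD4 lie at 0.

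Fos encodes c-Fos, which cannot form a stable homodimer and binds DNA as a heterodimer with a Jun protein. The gene lies on the forward strand of chromosome 12 from 86814840 to 86818223 (build NCBIM37, also called mm9). It was at 153 FPKM in the library labelled M1, 77.4 in M2 and 159 in CD4. M1 and CD4 were close together, and M2 stood apart from both. The ratio of M2 to M1 was 0.507 (counting interval 0.495 to 0.520), that of M2 to CD4 was 0.486 (0.475 to 0.498) and that of CD4 to M1 was 1.04 (1.02 to 1.06), a difference that changed sign when libraries were centred on housekeeping genes. In M1 this level was above 98.2% of the genes listed above 0.

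Jun encodes c-Jun, the AP-1 subunit that JNK phosphorylates. It is a gene of a single exon on the reverse strand of chromosome 4 from 94715725 to 94718913. Its order of libraries was the same as that of Fos, with 89.2 FPKM in M1, 39.9 in M2 and 112 in CD4. The ratio of M2 to CD4 was 0.356 (0.347 to 0.366) and that of M2 to M1 was 0.448 (0.436 to 0.460). Both lay past 2-fold. Jun had no further rows in the table, so these values do not depend on how its rows are joined. They do depend on scaling, and M2 came within 2-fold of M1 when FPKM was rescaled to the same total.

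Junb encodes a Jun protein that activates less strongly than c-Jun and can oppose it. It was at 150 FPKM in M1, 92.8 in M2 and 103 in CD4. Here M1 stood above the other two, by a ratio of 0.619 for M2 (0.604 to 0.635) and 0.685 for CD4 (0.670 to 0.701), and neither difference reached 2-fold. M2 and CD4 were closer, at a ratio of 0.904 (0.881 to 0.928), and changed order when FPKM was rescaled to the same total. The 1 transcript of Junb, also of a single exon, lies on the reverse strand of chromosome 8 from 87500811 to 87502617.

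Fosb encodes another Fos protein of AP-1, and it was the lowest of the AP-1 members. It lies on the reverse strand of chromosome 7 from 19888070 to 19895394. In the row with a value for every library it was at 3.49 FPKM in M1, 9.09 in M2 and 0 in CD4. A value of 0 in this table can be a failed estimate, since Atf4, which most cells transcribe, was listed at 0 in all 3 libraries. Atf4 is named after inspection of its values. The same Fosb transcript also stood on further rows that had a value in CD4 alone, at 9.28 and 5.94 FPKM. With all rows summed Fosb was at 8.996 FPKM in M1, 17.8 in M2 and 15.2 in CD4, and M2 was highest in both ways of reading the rows.

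In the rows with a value for every library, the 4 AP-1 members together summed to 395 FPKM in M1, 219 in M2 and 374 in CD4. With all rows summed they came to 401, 228 and 416 FPKM, so that M1 and CD4 changed order. Their proportions also differed, and are given here for the rows with a value for every library. Junb made up 42.3% of the sum in M2, 37.9% in M1 and 27.4% in CD4, while Jun made up 18.2%, 22.6% and 30.0% in the same order. Fos held 35.3% in M2, 38.6% in M1 and 42.6% in CD4. The ratio of Junb to Jun was therefore 2.32 in M2, 1.68 in M1 and 0.916 in CD4. These ratios lie within a library and do not change when a library is rescaled.

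Egr1, a zinc finger factor induced within minutes by ERK signals, was at similar levels in the 3 libraries. It lies on the forward strand of chromosome 18 from 35020861 to 35024638 and was at 35.2 FPKM in M1, 37.1 in M2 and 43.8 in CD4. The highest level was 1.24 times the lowest, and 1.34 times with all rows summed. The ratio of M2 to M1 was 1.05, with a counting interval of 1.02 to 1.09, and turned to 0.823 with all rows summed. Of its 2 annotated transcripts, Egr1-201 held the whole level and Egr1-001 was listed at 0 in each library.

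Egr2, which restrains T-cell activation and is also used in myeloid cells, had the opposite behavior. It lies on the forward strand of chromosome 10 from 66998223 to 67004936. It was at 10.01 FPKM in M1, 1.12 in M2 and listed at 0 in CD4. All of it was in Egr2-001, 1 of 7 Egr2 transcripts in the table. The ratio of M2 to M1 was 0.112 (0.0961 to 0.130), the widest gap among ratios of members listed above 0 in both libraries. The estimated number of fragments behind the level in M2 was 195, the smallest of any member value above 0, while the others ranged from 787 to 25837. Further rows added 7.02 FPKM in M1 and 3.25 in CD4, which gave 17.0 FPKM in M1, 1.12 in M2 and 3.25 in CD4. M1 was thus highest in either reading, while M2 and CD4 exchanged places. Egr1 exceeded Egr2 by 3.52 times in M1 and 33.1 times in M2.

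Nr4a1 encodes Nur77, a receptor with no known natural ligand that reports antigen receptor signals in T cells and shapes monocytes. It lies on the forward strand of chromosome 15 from 101097277 to 101105223, and has 1 annotated transcript of 7 exons. In the row with a value for every library it was at 11.3 FPKM in M1, 17.6 in M2 and 4.40 in CD4. All 3 levels were apart by more than counting error, with a ratio of M2 to CD4 of 4.01 (3.70 to 4.34) and of M2 to M1 of 1.56 (1.46 to 1.66). A further row with a value in M1 alone was at 120 FPKM. With all rows summed Nr4a1 was at 145 FPKM in M1, 26.0 in M2 and 5.66 in CD4, so that M2 was at 1.56 times the level of M1 in the first reading and at 0.179 times in the second. CD4 was lowest in both readings. No other member depended as much on the rows.

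Atf3 dampens inflammatory transcription in macrophages and belongs to the stress response as well. It lies on the reverse strand of chromosome 1 from 192994175 to 193007219. It was at 31.98 FPKM in M1, 26.9 in M2 and 25.6 in CD4. M2 and CD4 were near each other, at a ratio of 1.05 (1.00 to 1.10). Rows with values in M1 alone, which carry the identifier of the noncoding transcript Atf3-002, added 33.0 FPKM there. A row of the same identifier with a value in M2 alone added 6.26 FPKM to M2. With all rows summed Atf3 was at 65.004 FPKM in M1, 33.2 in M2 and 25.6 in CD4, and CD4 then lay past 2-fold below M1.

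Ier2 is a gene of a single exon on the reverse strand of chromosome 8 from 87185230 to 87186751. It was at 62.7 FPKM in M1, 42.2 in M2 and 44.4 in CD4. Like Junb it was highest in M1, with M2 at 0.673 (0.645 to 0.701) and CD4 at 0.708 (0.682 to 0.736) of that level. M2 and CD4 differed little, at a ratio of 0.950 (0.910 to 0.991), and changed order with the same rescaling.

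Dusp1, the feedback inhibitor of the group, lies on the reverse strand of chromosome 17 from 26642535 to 26645464. It was at 63.0 FPKM in M1, 61.4 in M2 and 44.7 in CD4. M1 and M2 could not be separated by counting alone, with a ratio of 0.975 and an interval of 0.944 to 1.006, and M2 was the higher after rescaling or with coding transcripts alone. Its transcripts were not alike. The coding transcript Dusp1-001 was at 48.3 FPKM in M1, 51.7 in M2 and 23.0 in CD4, so that it was past 2-fold lower in CD4 than in either of the others. Dusp1-002, which retains an intron, was at 14.7 FPKM in M1, 9.74 in M2 and 9.63 in CD4. Dusp1-003, a shorter form that also retains an intron, was listed at 0 in M1 and M2 and at 12.1 FPKM in CD4. As a level relative to Dusp1, Fos was 3.56 times as high in CD4, 2.42 times in M1 and 1.26 times in M2.

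The comparison of M2 with M1 is between 2 libraries that the labels name as macrophages. T-cell genes summed to 2273 FPKM in M2 and 2.87 in M1, and macrophage genes to 656 and 8503. It is therefore not read here as a difference between 2 macrophage types. Differences were taken on the log2(FPKM + 1) scale, which understates the change of low genes, and were counted where they reached 2-fold. Of the 10 members 1 was higher in M2, Fosb, beside 16.6% of all genes. The 2 that were lower were Jun, with a log2 difference of -1.14, and Egr2, with -2.38, beside 14.2% of all genes. Fos missed the threshold narrowly, at -0.97. The median difference of the members was -0.40 and that of all genes was 0.09. With all rows summed 0 members were higher, beside 19.7% of all genes, and 3 were lower (Jun, Egr2 and Nr4a1), beside 13.2%.

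Between CD4 and M1, whose levels of macrophage genes are both high, 7 of 10 members lay within 2-fold. None was higher in CD4 by 2-fold, beside 6.37% of all genes. The 3 that were lower were Nr4a1, with a log2 difference of -1.19, and Fosb and Egr2, which were listed at 0 in CD4, beside 6.60% of all genes. The median difference was -0.49 for the members and -0.00048 for all genes. With all rows summed the counts were again 0 and 3, beside 6.10% and 6.30% of all genes, but the 3 lower genes were Egr2, Nr4a1 and Atf3, and Fosb was on the higher side, with a log2 difference of 0.70.

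Between M2 and CD4 the members went both ways. Those higher in M2 by 2-fold were 3, namely Nr4a1, with a log2 difference of 1.79, and Fosb and Egr2, against values of 0 in CD4, beside 17.0% of all genes. Those lower in M2 were Fos, with -1.03, and Jun, with -1.47, beside 15.0% of all genes. Junb, Egr1, Ier2, Dusp1 and Atf3 were within 2-fold, although the coding transcript of Dusp1 alone was past 2-fold higher in M2. The median difference was -0.0018 for the members and 0.10 for all genes. With all rows summed 1 member, Nr4a1, was higher, beside 20.1% of all genes, and 3 were lower (Fos, Jun and Egr2), beside 14.0%. The comparisons share libraries and are not independent of each other.

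**Figure D2:**
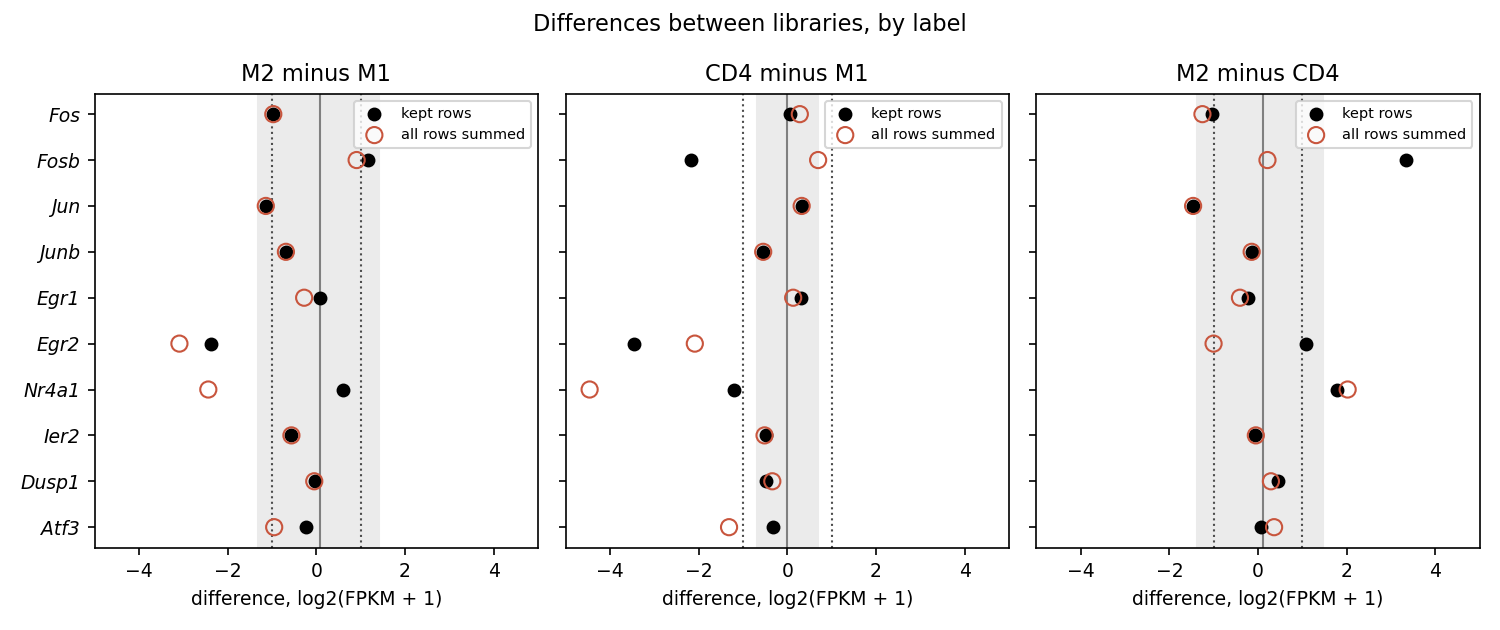
Difference of each immediate early gene on the log2(FPKM + 1) scale between pairs of libraries named by their labels, with filled points for the row that has a value in every library and open circles for all rows summed. The grey band runs from the 10th to the 90th percentile of all genes that passed the minimum, the grey line is their median and the dotted lines mark 2-fold. The open and filled points lie far apart for Nr4a1 in the panels against M1 and for Fosb and Egr2 in the panels with CD4.

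The readings part where a gene has further rows. The 10 genes have 25 annotated transcripts, of which 23 were in the table. In the row with a value for every library, 12 of these had a level above 0 in some library. Egr2-005 and Atf3-002 were above 0 in further rows alone. The same identifiers stood on 26 further rows, 24 with a value in 1 library and 2 with values in 2 libraries. Of their values 12 were in M1, 7 in M2 and 9 in CD4. They belonged to 8 members, and Jun and Junb had none. For Fos they added 26.8 FPKM in CD4 alone, which raised CD4 from 159 to 186 FPKM. For Egr1 they added 9.88 FPKM in M1 and 5.85 in CD4, and for Dusp1 5.37 FPKM in CD4. For Ier2 they added less than 1 FPKM in M1 and in M2. The order of the 3 libraries was the same in both readings for 6 members and differed for Fosb, Egr1, Egr2 and Nr4a1.

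**Figure D3:**
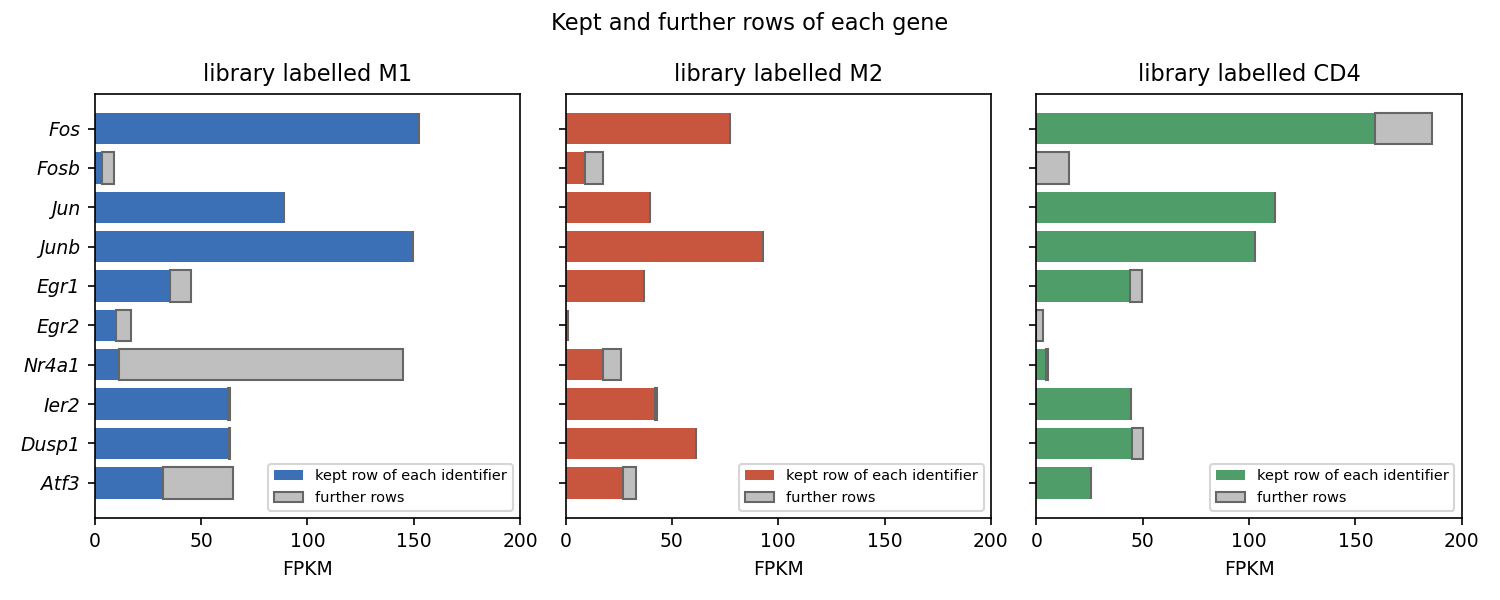
Level in FPKM (horizontal axis) of each immediate early gene in the libraries labelled M1, M2 and CD4, as coloured bars for the row of each transcript with a value in every library and grey bars for all further rows of the same transcripts. The longest grey bar is that of Nr4a1 in M1, where further rows added 134 FPKM to 11.3.

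The closest relatives of the members gave no single pattern. They are named here as paralogs and were chosen after their values were seen. Jund, the Jun gene that is expressed without a stimulus, was at 96.7 FPKM in M1, 100.5 in M2 and 65.2 in CD4. Fosl2, which encodes Fra-2, was at 6.53, 8.04 and 17.6 FPKM, so that it was past 2-fold higher in CD4 than in either of the others. Egr3 was at 1.24 FPKM in M1, 4.74 in M2 and 1.12 in CD4. Fosl1, Nr4a2 and Nr4a3 lay between 0.344 and 2.09 FPKM, and Egr4 reached at most 0.0476 FPKM.

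Other immediate early transcription factors, a list of 27 genes of which 25 passed the minimum, held genes of both directions. Between M2 and M1, 4 were higher in M2 (16% of the list, beside 16.6% of all genes) and 7 lower (28%, beside 14.2%), with a median log2 difference of 0.06. The lower genes included Cebpd, at 23.7 FPKM in M1 and 3.33 in M2, and Cebpb, at 106 and 22.0, both C/EBP factors of myeloid cells, and Nfil3, at 26.8 and 7.36. The higher ones included Id3, an inhibitor of E proteins, at 1.45 FPKM in M1 and 10.96 in M2, the interferon regulatory factor Irf1 at 22.4 and 77.9, and Klf2, which maintains quiescent T cells, at 7.39 and 22.5. Between CD4 and M1, 2 were higher (Fosl2 and Klf2, 8% beside 6.37%) and 6 lower (24% beside 6.60%), among them Id2 (167 FPKM in M1 and 34.7 in CD4), Bhlhe40 (69.03 and 18.9) and Nfil3. Between M2 and CD4, 3 were higher and 3 lower (12% each, beside 17.0% and 15.0%), the latter being Cebpd, Cebpb and Fosl2. With all rows summed 26 genes passed the minimum. M2 against M1 then had 4 higher and 6 lower (15.4% and 23.1%, beside 19.7% and 13.2% of all genes). CD4 against M1 had 3 and 5 (11.5% and 19.2%, beside 6.10% and 6.30%). M2 against CD4 had 5 and 4 (19.2% and 15.4%, beside 20.1% and 14.0%). Csrnp1, counted as lower in M2 than in M1, was listed at 0 in M2. Summed over all rows it was at 14.0 FPKM in M1 and 15.2 in M2 (named after inspection of its values).

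A list of 34 immediate early genes for signalling and mRNA decay held 5 relatives of Dusp1, which did not share 1 pattern. Dusp2, a nuclear MAP kinase phosphatase of activated lymphocytes, was at 4.06 FPKM in M1, 82.4 in M2 and 0.710 in CD4. Dusp6, the cytoplasmic phosphatase specific for ERK, was at 82.3 FPKM in M1, 12.8 in M2 and 91.3 in CD4. Dusp5 had the order of Dusp1, at 6.06 FPKM in M1, 4.72 in M2 and 1.13 in CD4, while Dusp4 and Dusp8 were under 5 FPKM in each library (these 3 were added after inspection of their values). With all rows summed Dusp5 was at 11.9 FPKM in M2, above M1 and unlike Dusp1, and Dusp8 reached 6.80 FPKM in M2. Cd69, an early activation antigen of lymphocytes, was at 5.91 FPKM in M1, 29.6 in M2 and 2.57 in CD4. Plk2, a stress-responsive kinase, was at 12.3, 4.37 and 31.2 FPKM, and Rgs2, which limits G protein signals, was at 51.9, 20.2 and 18.9. In this list 7 genes were higher and 7 lower in M2 than in M1 (20.6% each, beside 16.6% and 14.2% of all genes). In CD4 against M1, 1 was higher and 7 lower (2.94% and 20.6%, beside 6.37% and 6.60%), and in M2 against CD4, 11 were higher and 3 lower (32.4% and 8.82%, beside 17.0% and 15.0%). The median log2 differences were -0.15, -0.28 and 0.54. Btg1, an antiproliferative gene, was at 37.7 FPKM in M1, 165 in M2 and 44.8 in CD4, but with all rows summed M1 was at 192 FPKM and its difference from M2 was no longer past 2-fold. Pim1 (54.3 FPKM in M1 and 16.9 in CD4) and Ier5 (46.8 and 19.97) also lost the 2-fold mark against M1 when all rows were summed. Rhob, a small GTPase, was at 68.3 FPKM in CD4 and 30.6 in M2.

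NF-κB feedback genes and targets, which share several stimuli with the members, numbered 16. Il1b had the widest range, at 230 FPKM in M1, 20.2 in M2 and 92.3 in CD4. Icam1, an adhesion molecule, was at 39.6, 10.3 and 30.6 FPKM. The neutrophil chemokines Cxcl1 and Cxcl2 were lowest in CD4, at 2.54 and 14.4 FPKM, against 11.8 and 57.4 in M1 and 17.6 and 73.2 in M2. The ubiquitin-editing inhibitor Tnfaip3 was at 7.44 FPKM in M1, 21.0 in M2 and 4.32 in CD4, and Nfkbiz at 7.78, 17.2 and 8.82. Summing all rows took Cxcl1 within 2-fold between CD4 and M1, and Nfkbiz between M2 and M1. Ccl3 was at 28.9, 15.2 and 33.4 FPKM. Past 2-fold, 2 were higher and 2 lower for M2 against M1 (12.5% each, beside 16.6% and 14.2% of all genes). For CD4 against M1 the counts were 0 and 3 (18.8% lower, beside 6.60%), and for M2 against CD4 they were 4 and 3 (25% and 18.8%, beside 17.0% and 15.0%), with median log2 differences of -0.03, -0.41 and 0.06.

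Heat shock protein genes, which like the members respond to handling and stress, numbered 15. Of these 1 was higher and 1 lower in M2 than in M1 (6.67% each, beside 16.6% and 14.2% of all genes), 0 were past 2-fold between CD4 and M1 (beside 6.37% and 6.60%), and 1 was higher and 2 lower in M2 than in CD4 (6.67% and 13.3%, beside 17.0% and 15.0%). The median log2 differences were -0.23, -0.09 and -0.02. The inducible Hspa1a was at 53.7 FPKM in M1, 20.9 in M2 and 49.4 in CD4, the order of libraries M1 and CD4 above M2 that Fos and Jun also had. Hspa5, the chaperone of the endoplasmic reticulum, was at 407, 240 and 532 FPKM, and Hspb1 went the other way, at 9.04, 26.7 and 8.58. The part of dissociation and sorting in any of these levels was not tested.

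Genes upstream of the members were 26 kinases and SRF or CREB pathway factors. Of these 3 were higher and 6 lower in M2 than in M1 (11.5% and 23.1%, beside 16.6% and 14.2% of all genes). Elk4, counted as lower, was at 7.67 FPKM in M1 and listed at 0 in M2, but at 60.3 FPKM in M2 with all rows summed. Elk1, counted as higher, was at 5.94 FPKM in M2 and listed at 0 in M1. Both are named after inspection of their values. In CD4 against M1, 2 were higher and 1 lower (7.69% and 3.85%, beside 6.37% and 6.60%), and in M2 against CD4, 2 were higher and 4 lower (7.69% and 15.4%, beside 17.0% and 15.0%). With all rows summed 4 were higher and 5 lower in M2 than in M1 (15.4% and 19.2%, beside 19.7% and 13.2%). The counts were then 1 and 0 for CD4 against M1 (3.85% and 0%, beside 6.10% and 6.30%). For M2 against CD4 they were 3 and 3 (11.5% each, beside 20.1% and 14.0%). Mapk3, which encodes ERK1, was at 88.7 FPKM in M1, 30.2 in M2 and 87.3 in CD4. Mkl1, an SRF cofactor, was at 11.8, 26.1 and 10.8 FPKM. Crem, a relative of CREB, was at 14.98, 4.93 and 10.97 FPKM. When all rows were summed Mkl1 was within 2-fold between M2 and M1, and Crem between M2 and CD4. Mapkapk2, the kinase below p38, was at 12.7, 5.10 and 83.7 FPKM. Rps6ka3, a kinase below ERK, was at 41.2, 13.2 and 14.9 FPKM, and was within 2-fold of M1 in both libraries with all rows summed. The median log2 differences of the list were -0.03, -0.10 and 0.06.

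Other bZIP factors, some of which pair with Fos or Jun proteins, included several that were lower in M2. Of the 17 that passed the minimum 7 were lower and 1 higher in M2 than in M1 (41.2% and 5.88%, beside 14.2% and 16.6% of all genes). In M2 against CD4, 8 were lower and 1 higher (47.1% and 5.88%, beside 15.0% and 17.0%), and in CD4 against M1, 1 was lower and 1 higher (5.88% each, beside 6.60% and 6.37%). The myeloid factor Cebpa was at 50.2 FPKM in M1, 11.2 in M2 and 53.3 in CD4. Maf was at 12.6, 14.2 and 132 FPKM. Batf3, a factor of dendritic cells, was at 10.98, 0.404 and 4.21 FPKM. Bach2, a repressor in lymphocytes, was at 11.9 FPKM in M2, 0.833 in CD4 and listed at 0 in M1. The median log2 differences of the list were -0.56, -0.07 and -0.43. Of 14 housekeeping genes 0 were past 2-fold between M2 and M1 (beside 16.6% and 14.2% of all genes). In CD4 against M1, 0 were higher and 1 lower, Ywhaz (7.14% lower, beside 6.60%). In M2 against CD4, 1 was higher, Ywhaz, and 1 lower, Hprt (7.14% each, beside 17.0% and 15.0%). The median log2 differences were -0.01, -0.12 and -0.02. Actb was at 1968 FPKM in M1, 1234 in M2 and 1713 in CD4, Gapdh at 163, 99.0 and 90.9, B2m at 1300, 1668 and 1761, and Hprt at 81.7, 48.2 and 99.9. Ywhaz was at 81.2, 80.1 and 15.02 FPKM, and at 69.2 FPKM in CD4 with all rows summed. Hprt was then at 57.8 FPKM in M2, and 0 housekeeping genes were past 2-fold in any comparison.

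**Figure D4:**
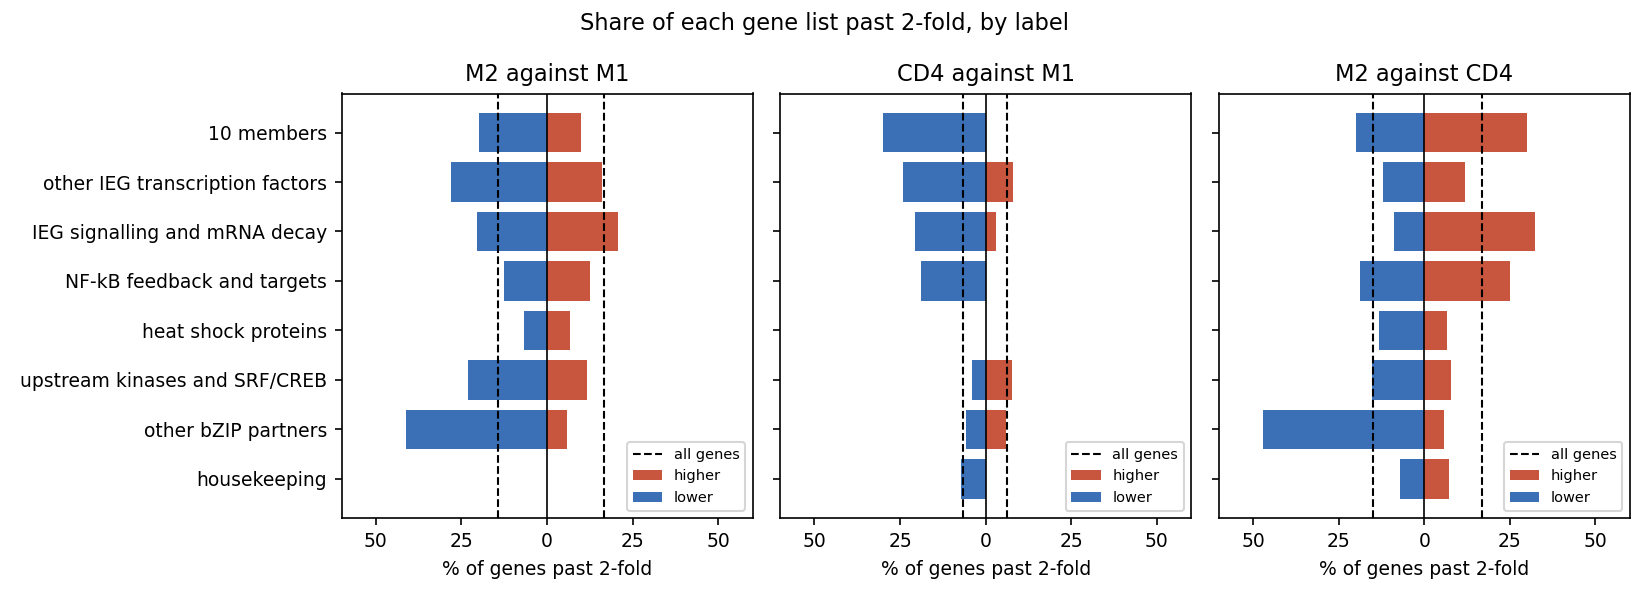
Share of each gene list past 2-fold on the log2(FPKM + 1) scale, in percent of its genes that passed the minimum, with bars to the right for higher and to the left for lower in the first-named library. Dashed lines give the shares over all genes, and the bar of the 10 members reaches 30% on the lower side for CD4 against M1, where all genes are at 6.60%, and 30% on the higher side for M2 against CD4, where all genes are at 17.0%. Both of these bars include Fosb and Egr2, which were listed at 0 in CD4. With all rows summed, which is not drawn, the share for M2 against CD4 was 10%, beside 20.1% of all genes. That for CD4 against M1 was again 30%, beside 6.30%, but without Fosb.

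Across genes, those nearest in pattern were sought among 4122 genes with at least 10 FPKM in each library, by Euclidean distance between the pair of log2 differences from M1 and the members' median pair (-0.40 for M2 and -0.49 for CD4). With 3 libraries such likeness rests on 2 numbers per gene. The nearest 5 were Gm7729 at a distance of 0.0331, Emd at 0.0384, Gm11652 at 0.0440, Timm17a at 0.0480 and Prr13 at 0.0518. Emd encodes the nuclear envelope protein emerin, and was at 50.5 FPKM in M1, 37.0 in M2 and 35.4 in CD4.

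The members share features of structure that their selection did not use. They are compact. The leading coding transcript had a median of 3.5 exons, against 9 over 11007 coding genes that passed the minimum, and 9 of 10 members spanned under 10000 bases of the genome, as did 28.8% of those genes. Atf3 was the exception, with 13045 bases. The 3′ untranslated parts of the members carry the pentamer ATTTA, the core of the AU-rich elements that shorten the life of many induced mRNAs. At least 2 copies were found in 8 members and in 44.8% of all coding genes with such a part, and the median density was 2.89 per kilobase against 1.21. Ier2 had none. The longer form TTATTTATT was found in Fos and Dusp1 and in 6.73% of coding genes. Windows of 30 bases with 2 copies are shown for Fos, whose AU-rich element is the classical example, and for Dusp1, read from the reference of build NCBIM37 in the sense of the transcript, with ATTTA in capitals. They lie at chr12:86818050-86818079 on the forward strand and at chr17:26643102-26643131 on the reverse strand.
Fos: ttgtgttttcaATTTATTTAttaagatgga
Dusp1: agctggtccttATTTATTTAacacccccct

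Promoters were searched because the members are known for sites of CREB and SRF close to their start. RefSeq promoters of build GRCm38.p6, with 250 bases before the start site and 50 from it on, were matched for 8 members, with 5 start sites for Egr2 and 12 promoters in all. Ier2 and Egr1 are not described. Both strands were read. The core of the cAMP response element, TGACG, was found in 7 of the 8 genes, the exception being Jun. By promoter this was 9 of the 12, of which 3 are overlapping promoters of Egr2, against 20.8% of all 32851 promoters. The full element TGACGTCA, which contains this core, was found in 1 of the 12 promoters, that of Dusp1, and in 1.79% of all promoters. The CArG box, the site of SRF, was found in 1 of the 8 genes, Egr2. By promoter this was 4 of the 12, against 1.63% of all promoters. A box farther than 250 bases before the start, in Fos or any other member, could not be found by this search. Of the 4 promoters of Egr2 that hold it, 3 overlap and share 1 site, so that there are 2 sites in all. The EGR site GCGNGGGCG was found in 2 of the 12 promoters, those of Fosb and Nr4a1, and in 5.55% of all promoters. The AP-1 site TGANTCA was found in 0 of the 12 and in 7.81% of all. These matches are letters within a short window and not measured binding. The stretches with the matches of Fos, Egr2 and Dusp1 are shown because these genes stood for the 3 patterns above, lowest in M2, highest in M1 and near equal in M1 and M2. Capitals mark the cores and, in Egr2, also the CArG box and, in Dusp1, also the full element. They lie at chr12:85473746-85473843 on the forward strand, chr10:67537743-67537833 on the forward strand and chr17:26508593-26508678 on the reverse strand.
Fos: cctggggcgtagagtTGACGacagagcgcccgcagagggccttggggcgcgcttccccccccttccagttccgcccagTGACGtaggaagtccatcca
Egr2: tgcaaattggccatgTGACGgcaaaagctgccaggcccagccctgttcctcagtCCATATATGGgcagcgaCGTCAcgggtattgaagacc
Dusp1: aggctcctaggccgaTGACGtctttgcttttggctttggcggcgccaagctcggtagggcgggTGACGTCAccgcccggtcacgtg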

How the data were processed

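RNA of 3 sorted populations, 1 library each, was sequenced as paired reads of 51 bases. The authors aligned them to MM9 with Bowtie and TopHat, ran Cufflinks with Ensembl release 67, and deposited transcript levels in FPKM in 1 table. Columns were assigned by their headings. The labels also name Cuffdiff. The step that merged the 3 libraries into 1 table is not given in the sources used here. The table holds several rows for some identifiers and a dash where a library has no value, and 10182 of its 135070 rows, which carry no identifier, were left out. For each identifier the first row with 3 values was kept, and these were summed per gene through the GENCODE annotation of NCBIM37 (Ensembl release 65), in which 97.6% of identifiers were found. Differences were log2(FPKM + 1), for genes with at least 1 FPKM in 1 library. No test was possible. Depth came from the most frequent low product of FPKM and length over coding genes with 1 transcript of 2500 to 8000 bases. The members and gene lists were chosen with earlier results of these data known. Lists were described by counts and medians, naming up to 3 genes past 2-fold per direction and comparison that reached 10 FPKM in either library. The rule also named the 5 nearest genes, Cd3e, Trbc1, Csf1r, Emr1, Itgam, Actb, Gapdh, Hprt and B2m. Some genes that the rule selects are not reported here. The calculations were tested on simulated data. Alternatives varied the rows used, scaling, pseudocount, fold, minimum and transcripts. Scripts ran in Python 3.11.15 with pandas 2.3.3, numpy 2.4.6 and scipy 1.17.1, and figures were drawn with matplotlib 3.10.9.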

Additional observations from a re-analysis of the deposited data

Results flagged for a closer look

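Rows that the levels above leave out, because they lack a value in at least 1 library, held signal for 4 members of at least 10 FPKM in a library. For Nr4a1 these rows held 134 FPKM in the library labelled M1, for Atf3 33.0 FPKM in M1, for Fos 26.8 FPKM in CD4 and for Fosb 15.2 FPKM in CD4. No library served as a control for these rows, and what they are was not tested.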

How the results depend on the processing

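No paired analysis was possible because each population had 1 library, and for the same reason no library could be left out. The 3 median differences moved by less than the spread of the members in all 10 alternatives that give one. This spread, the SD of the members' differences, was larger than each median, so staying within it does not show that a median held. For M2 against M1 the SD was 0.984, and the median went from -0.40 to -0.82 with all rows summed. For M2 against CD4 the median went from -0.0018 to 0.16 with FPKM rescaled to a total of 1000000. Of the counts of members past 2-fold, those that moved by over 1.5 times were these. For M2 against M1, the 1 higher gene became 0 with all rows summed, with a pseudocount of 10, at a fold of 4 and at a minimum of 10 FPKM, and the 2 lower genes became 1 with FPKM rescaled to a total of 1000000, 1 at a fold of 4 and 0 with a pseudocount of 10. For CD4 against M1, the 3 lower genes became 1 with a pseudocount of 10. For M2 against CD4, the 3 higher genes became 1 with all rows summed, 1 at a fold of 4 and 0 with a pseudocount of 10, and the 2 lower genes became 1 with rescaling, 1 with centring on the housekeeping list, 1 with a pseudocount of 10 and 0 at a fold of 4. Of 297 recomputed differences of single members 9 changed sign, 2 of them past 2-fold at first and 7 within it. With all rows summed these were Fosb for CD4 against M1, from -2.17 to 0.70, and Egr2 for M2 against CD4, from 1.08 to -1.004, where further rows replace a value of 0, and for M2 against M1 Nr4a1, from 0.60 to -2.44, and Egr1, from 0.07 to -0.27. The other 5 were no larger than 0.144 at first, 4 of them under a scaling and 1 with coding transcripts alone. Of 672 recomputed medians and counts of the lists, 79 moved, the medians by over 1 SD of their genes or the counts by over 1.5 times. A larger pseudocount draws low genes such as Fosb, Egr2 and Nr4a1 together by construction. The other causes were not tested. The estimated depths, over other ranges of length, were 58700000 to 60800000 fragments for M1, 56700000 to 62900000 for M2 and 74800000 to 77400000 for CD4.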
